A study of Homo sapiens with 18 samples.

Results

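In PANC-1 cells, 75 genes had lower RNA after transfection with either of 2 siRNAs against PKR and higher RNA after treatment with C16, an inhibitor of the PKR kinase. They were drawn from the 9821 genes, of 26485 listed, whose mean normalized count was at least 10 in both deposited tables. The genes were chosen by their measured RNA levels. A gene was included when the log2 ratio of group means, each with 1 added, was under -0.585 for PKR siRNA 1 and for PKR siRNA 2 against control siRNA and over 0.585 for 800 nM C16 against DMSO, with all 3 treated libraries beyond all 3 controls each time. These 3 comparisons chose the genes, so their values are given as a description and were not tested. The 400 nM C16 libraries entered the choice only through the minimum mean, which was taken over all 9 libraries of a table. The DMSO, 800 nM C16 and PKR siRNA libraries also entered through the ratios. Comparisons of 400 nM with DMSO, of the doses and of the siRNAs with each other therefore share libraries with the choice and are not independent of it.

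PANC-1 is an established cell line from a human pancreatic ductal carcinoma. One arm received an siRNA at 50 pM, either a control or 1 of the 2 against PKR (PKR siRNA 1, PKR siRNA 2), and the other arm received DMSO, 400 nM C16 or 800 nM C16. RNA was collected at 72 h in both, and each of the 6 groups had 3 libraries. The siRNA libraries were labelled as run 1 and the C16 libraries as run 2, without a statement of what a run was. They were normalized in separate tables, so an effect of the run and one of the treatment type cannot be told apart. Nothing states that replicates were separate cultures, so every SD, SE and p-value measures the spread between libraries, which may be technical. The libraries held 1512940 to 1873906 reads on genes in the siRNA table and 894145 to 1474308 in the C16 table. A normalized count is the read count of a gene divided by a factor for its library, and here 1 read was worth close to 1 unit.

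PKR, encoded by EIF2AK2, is a protein kinase that binds double-stranded RNA. Once active it phosphorylates the translation initiation factor eIF2 alpha, which lowers general protein synthesis and favours the translation of some stress messages, and it is also known for its part in interferon and inflammatory signalling. An siRNA removes the PKR message and with it the protein, whereas C16 leaves the protein in place and blocks its kinase activity. An siRNA can also lower other messages through its seed, the short stretch near the start of its guide strand, when the complement of the seed stands in their 3′ UTR.

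EIF2AK2 showed which libraries carried the knockdown. Its normalized count was 95.5, 93.5 and 103 after control siRNA, 10.0, 13.6 and 9.65 after PKR siRNA 1 and 7.96, 8.58 and 9.40 after PKR siRNA 2. The corresponding group means were 97.4 ± 5.21, 11.1 ± 2.19 and 8.65 ± 0.726 (SD, n = 3), and no PKR siRNA library reached any control library. In the C16 table EIF2AK2 stood at 49.8 ± 4.20 with DMSO, 42.5 ± 3.26 at 400 nM and 49.9 ± 1.38 at 800 nM. Among the epithelial markers, KRT8 ran from 1246 to 5105, KRT18 from 977 to 2003 and KRT19 from 519 to 3058 across the 18 libraries. EPCAM ran from 9.40 to 120, CDH1 from 9.07 to 61.7 and KRT7 from 0.761 to 20.5. Among the mesenchymal markers, VIM ran from 1887 to 5381, CDH2 from 57.3 to 134 and FN1 from 0 to 10.3, with FN1 at 0 in 1 library. Of 19 markers, 5 were at 0 in all 18 libraries, namely PTPRC and CD3E of leukocytes, COL1A2 and DCN of fibroblasts and ALB of hepatocytes. COL1A1, also a fibroblast marker, was at 0 in none and ran from 21.8 to 161. The leukocyte marker CD14 reached 4.86 and was at 0 in 7 libraries, the hepatocyte marker APOA1 reached 1.22 and was at 0 in 14, and the endothelial markers PECAM1 and CDH5 were each at 0 in 17.

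Under the same thresholds, 12.4% of the 9821 genes were lowered by PKR siRNA 1, 12.4% by PKR siRNA 2, 11.4% were raised by 800 nM C16 and 13.7% were lowered by it. Both siRNAs lowered 330 genes, and of these 75 (22.7%) were raised and 40 (12.1%) were lowered by 800 nM C16. The 75 genes made up 6.69% of the 1121 that 800 nM C16 raised. Among the 211 genes that both siRNAs raised, 25 were raised and 24 were lowered by 800 nM C16. The median log2 ratio of the 75 genes was -1.08 after PKR siRNA 1, from -3.12 to -0.59, and -1.24 after PKR siRNA 2, from -4.20 to -0.60. With 800 nM C16 the median was 1.02, from 0.60 to 3.33. The 3 genes closest inside the thresholds were STEAP1, CHMP4C and CAPN2, whose smallest log2 ratio was 0.59, 0.60 and 0.60 in size. The 3 closest outside were PTBP2, DNAJC10 and SC5D at 0.58. In bulk RNA, a smaller share of cells that hold a message and less of it in each cell cannot be told apart.

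**Figure D1:**
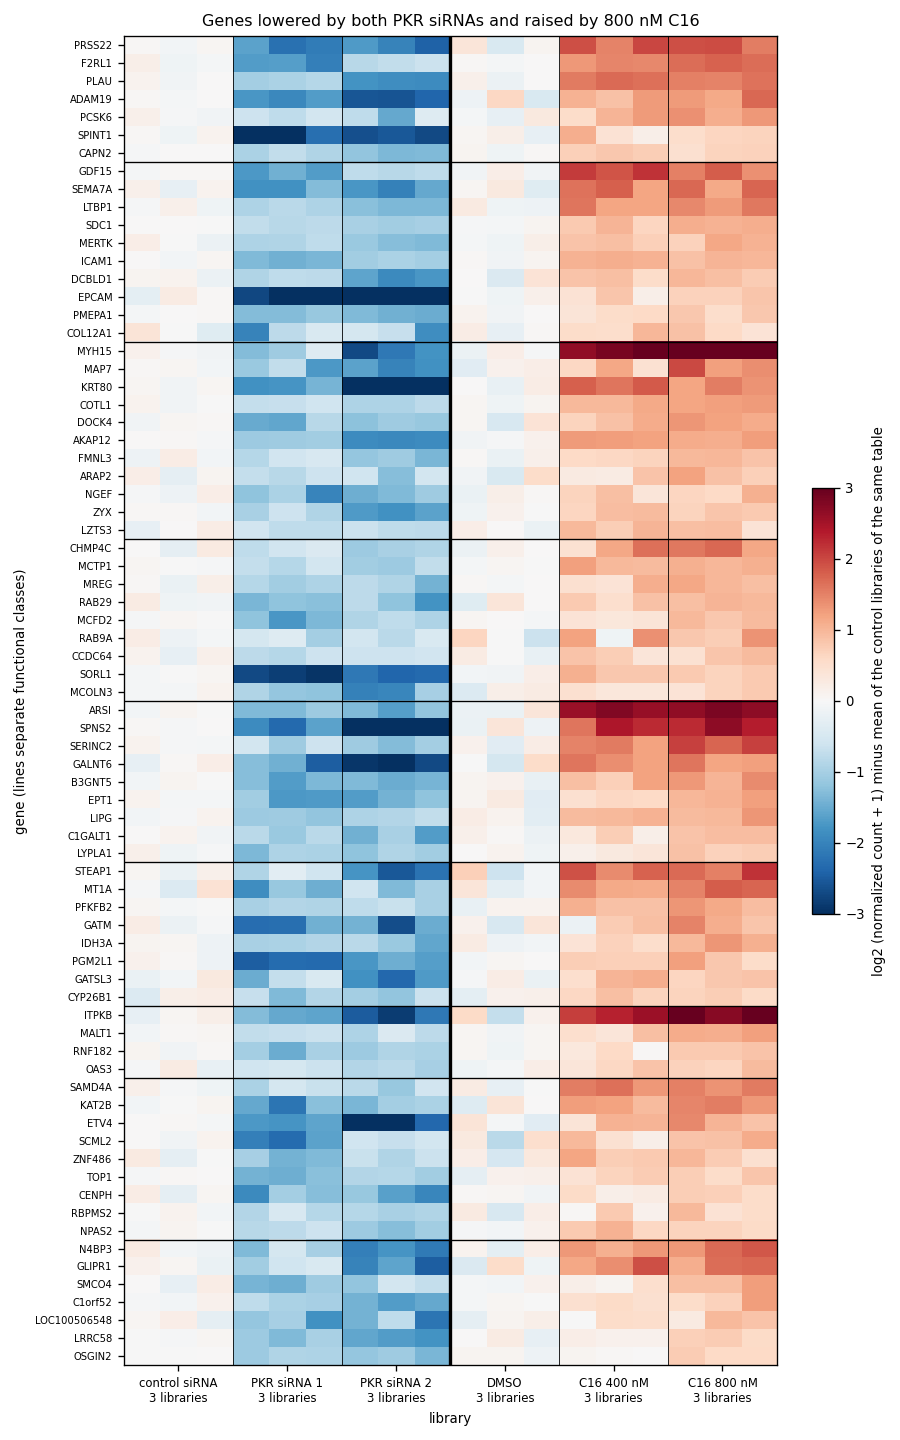
Rows are 74 of the 75 genes, with lines between functional classes, and columns are the 18 libraries in groups of 3. Colour is log2 (normalized count + 1) minus the mean of the control libraries of the same table (control siRNA on the left, DMSO on the right), with the scale ending at -3 and 3. The PKR siRNA libraries are blue and the C16 libraries red because the genes were chosen so, while the 400 nM columns were free to differ.

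Seed matches are shown first because a fall with both siRNAs was part of the choice. The searched letters were the complements of guide positions 2 to 8, AGAGATA for PKR siRNA 1 and AAGTAAT for PKR siRNA 2, on the sense strand of the 3′ UTR of the canonical transcript in GENCODE release 44 (hg38). Of the 75 genes, 74 had a 3′ UTR of at least 50 bases. The letters for PKR siRNA 1 occurred in 20 of them (27%), against 12% of 9467 genes of the same background. Those for PKR siRNA 2 occurred in 16 (21.6%), against 16.8%. Both occurred in 10 genes (13.5%, background 4.55%), and neither in 48 (64.9%, background 75.8%). Among the 253 other genes that both siRNAs lowered, the shares were 21.7% and 30%. The 3′ UTRs had a median of 1782 bases in the 74 genes and 1434 in the background, and per kilobase the letters for PKR siRNA 1 occurred 0.138 times against 0.068, and those for PKR siRNA 2 0.138 times against 0.106.

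The genes with both sets of letters were C1orf52, EPT1, FMNL3, IDH3A, LRRC58, MCTP1, PGM2L1, SAMD4A, SORL1 and ZNF486. The matches of 4 of them are printed, in lower case with the 7 matching letters in capitals, so that a reader can see what such a match looks like. EPT1, IDH3A and PGM2L1 have full values further on, and SORL1 was added after its values were seen because its ratio after PKR siRNA 1 was the lowest of the 10.
SORL1, PKR siRNA 1 seed, chr11:121630694-121630720: acattctcatAGAGATAgagaagatct
SORL1, PKR siRNA 1 seed, chr11:121633134-121633160: atagataggaAGAGATAtgtactgctg
SORL1, PKR siRNA 2 seed, chr11:121632478-121632504: acttttggacAAGTAATtcctggggtt
SORL1, PKR siRNA 2 seed, chr11:121633282-121633308: cgtcacagccAAGTAATaacccaagaa
PGM2L1, PKR siRNA 1 seed, chr11:74333147-74333173: ttaaaaattaAGAGATAtacagatgac
PGM2L1, PKR siRNA 2 seed, chr11:74335594-74335620: ttattttatgAAGTAATgttaatttta
PGM2L1, PKR siRNA 2 seed, chr11:74332369-74332395: ttattgtaggAAGTAATtttaaatcta
EPT1, PKR siRNA 1 seed, chr2:26391388-26391414: tttgttgtgtAGAGATAtagcagctga
EPT1, PKR siRNA 2 seed, chr2:26395778-26395804: tgaaaccccaAAGTAATgcagtaggtt
IDH3A, PKR siRNA 1 seed, chr15:78169608-78169634: atatataatgAGAGATAtaatttttgt
IDH3A, PKR siRNA 2 seed, chr15:78170508-78170534: cttgggttcaAAGTAATaaagaattcc
The median log2 ratio after PKR siRNA 1 was -1.12 in the 20 genes with its letters and -1.07 in the 54 without. With PKR siRNA 2 it was -1.31 in the 16 with a match and -1.19 in the 58 without. All of these genes had to fall past the threshold with both siRNAs, so their medians cannot show whether a match goes with a larger fall. Over all genes of the background the medians were -0.23 with and 0.01 without the letters of PKR siRNA 1, and -0.15 and 0.00 for PKR siRNA 2. Whether any of these sites was bound was not tested.

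C16 at 400 nM was the dose outside the ratios of the choice, although the DMSO libraries it was set against were part of them. Its libraries did count toward the minimum mean of 10. GLIPR1 and SPINT1 reached that mean in the C16 table only with the 400 nM libraries included. All 75 genes had a log2 ratio above 0 at 400 nM, with a median of 0.82 and a range from 0.04 to 2.83, against a median of 0.00 over the 9821 genes. In 63 genes all 3 libraries at 400 nM lay above all 3 DMSO libraries, which was so for 20.4% of the background. In 53 they did so with a ratio over 0.585 (background 7.03%). By limma with Benjamini-Hochberg adjustment over the table, at an adjusted p under 0.05 and a fold change over 1.5, 51 of the 75 genes rose (7.08% of genes tested) and 0 fell (5.45%), with 0 below DMSO at an unadjusted p under 0.05 and 0 by edgeR and DESeq2. A further 8 had an adjusted p under 0.05 with a smaller fold change, and 16 missed the p threshold. The DMSO libraries behind these counts also served in the choice, so the counts are a description.

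**Figure D2:**
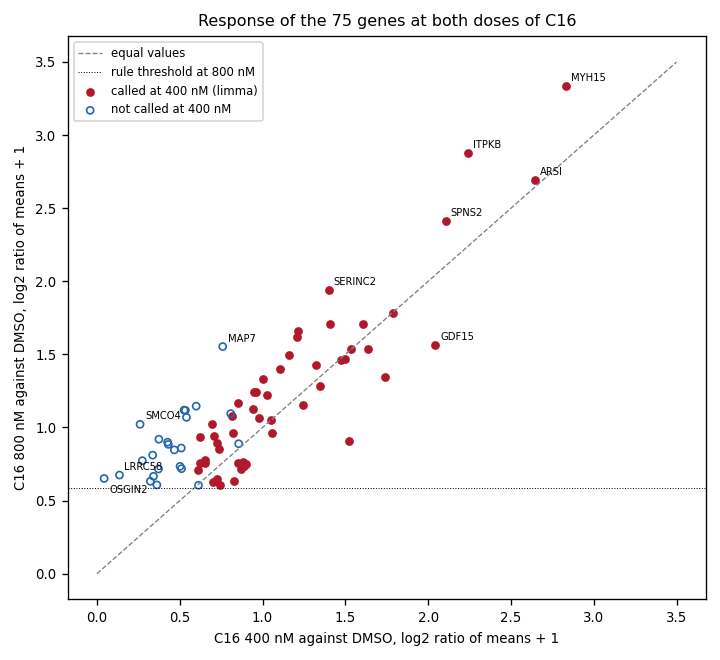
Each point is 1 of the 75 genes, placed by its log2 ratio of means plus 1 at 400 nM C16 (horizontal) and at 800 nM C16 (vertical) against the same 3 DMSO libraries. Filled points are the 51 genes called at 400 nM and open points the 24 that were not. Most genes lie above the dashed line of equal values, and GDF15 is among those below it.

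The difference between the doses was small. From 400 to 800 nM the median log2 ratio was 0.23, from -0.62 to 0.79, and limma called 2 genes higher at 800 nM (1.13% of genes tested) and 0 lower (3.95%). Of the 75, 3 were lower at 800 nM at an unadjusted p under 0.05, and edgeR called 1 lower and DESeq2 0. At an adjusted p under 0.05 without the fold threshold the counts were 11 and 1. For the 51 genes called at 400 nM the 800 nM value did not pass the test against it in either direction. The higher dose exceeded the lower without overlap in 22 genes (background 13.5%) and fell short of it in 6 (17%). In 18 genes the libraries were ordered DMSO, 400 nM, 800 nM with no overlap at either step (background 4.53%). The 800 nM and DMSO libraries served in the choice, which favours high values at 800 nM, so nothing is read from these counts against the background. The 2 genes called higher at 800 nM were OSGIN2 and SMCO4, which had 2 of the 3 smallest values at 400 nM.

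OSGIN2 had counts of 87.4, 87.6 and 73.9 with DMSO, 88.3, 85.3 and 83.0 at 400 nM and 141, 126 and 126 at 800 nM. The 2 lower groups overlapped, and all libraries at 800 nM lay above them. Its difference from DMSO was 0.05 on the log2 scale (SE 0.12, limma adjusted p = 0.812) at 400 nM, and its difference between the doses was 0.61 on the log2 scale (SE 0.12, limma adjusted p = 0.000292). Without the first 800 nM library the second value was 0.55, and with a pseudocount of 5 it was 0.58, both under the fold threshold. In the siRNA table OSGIN2 stood at 135, 135 and 137 after control siRNA, 63.3, 72.6 and 70.4 after PKR siRNA 1 and 60.7, 64.3 and 51.7 after PKR siRNA 2. SMCO4, a gene of low counts, had 12.6, 12.4 and 14.5 with DMSO, 14.9, 13.8 and 19.1 at 400 nM and 25.2, 25.6 and 32.4 at 800 nM. Its difference between the doses was 0.77 on the log2 scale (SE 0.27, limma adjusted p = 0.0423), and it missed the p threshold when either of the first 2 libraries at 400 nM or any library at 800 nM was left out, with values from 0.65 to 0.83 and adjusted p from 0.0662 to 0.18. With siRNA it had 19.5, 16.1 and 22.8 in the control, 6.66, 6.35 and 8.68 after PKR siRNA 1 and 7.96, 12.9 and 11.3 after PKR siRNA 2. LRRC58 counted 146, 172 and 123 with DMSO, 167, 158 and 159.6 at 400 nM and 239, 249 and 218 at 800 nM, so the low dose lay within the DMSO range. Its 400 nM difference was 0.15 on the log2 scale (SE 0.10, limma adjusted p = 0.3). Between the doses it was 0.54 (limma adjusted p = 0.000145), which passed the fold threshold only without the third 800 nM library, at 0.59. The siRNA groups of LRRC58 did not overlap, at 234, 232 and 246 in the control, 111, 94.3 and 121 after PKR siRNA 1 and 79.6, 74.0 and 67.7 after PKR siRNA 2.

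The 2 siRNAs differed from each other in 22 of the 75 genes. Limma called 4 higher after PKR siRNA 2 (16.4% of genes tested) and 18 lower (15.3%). Both PKR siRNA groups served in the choice, with a bound on each, so these counts are a description and nothing is read from them against all genes. The median difference was -0.17, with 48 genes lower and 27 higher after PKR siRNA 2. The genes higher after PKR siRNA 2 were SCML2, F2RL1, GDF15 and PGM2L1. Those lower included SPNS2, KRT80, STEAP1, GALNT6, GLIPR1, MYH15, ETV4, GATSL3, N4BP3, ITPKB, DCBLD1, PLAU, ZYX, AKAP12, ADAM19, C1orf52 and MAP7. When the third PKR siRNA 1 library was left out, 7 genes were called higher.

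**Figure D3:**
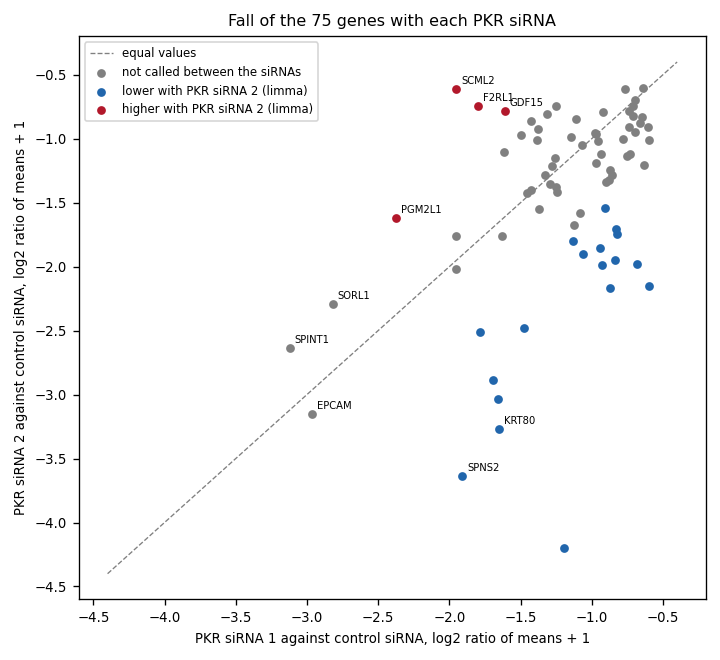
Each point is 1 of the 75 genes, placed by its log2 ratio of means plus 1 against control siRNA after PKR siRNA 1 (horizontal) and PKR siRNA 2 (vertical). Blue points are the 18 genes called lower and red points the 4 called higher after PKR siRNA 2. SPNS2 and KRT80 are among those far below the dashed line of equal values, and SCML2 lies farthest above it.

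The genes were next read by function, in 8 classes that were assigned by hand from textbook roles after the genes were known, with 7 genes left unclassed. The first class was extracellular and cytosolic proteolysis, with 7 genes. It held PLAU (urokinase, the plasminogen activator), PRSS22 (a secreted serine protease), PCSK6 (a proprotein convertase), ADAM19 (a membrane-bound metalloprotease), CAPN2 (the catalytic subunit of a calpain), SPINT1 (a membrane inhibitor of serine proteases) and F2RL1 (the receptor PAR2, which is switched on when such proteases cut it). At 400 nM C16 6 of the 7 rose and SPINT1 did not pass, with a class median log2 ratio of 1.00. Of all 75 genes 51 rose at that dose, and of all genes tested 7.08%. The DMSO libraries also served in the choice, so this and the later class counts are a description. No class was tested against another. PLAU (chr10:73911104-73917500, plus strand) counted 1318, 1130.2 and 1229 after control siRNA, 602, 638 and 676 after PKR siRNA 1 and 350.1, 335 and 331 after PKR siRNA 2. Under C16 the series was 235, 186 and 212 with DMSO, 623, 689.6 and 659.6 at 400 nM and 600.1, 589 and 654 at 800 nM. All 3 siRNA groups stood apart, whereas the C16 doses overlapped well above DMSO. PLAU rose at 400 nM by 1.64 on the log2 scale (SE 0.08, limma adjusted p = 1.41e-25) and did not differ detectably between the doses (-0.10, 95% interval -0.25 to 0.05). It fell from PKR siRNA 1 to PKR siRNA 2 by 0.91 (SE 0.06, limma adjusted p = 1.53e-22). Of the exonic bases of PLAU 28.6% overlap C10orf55 on the other strand, so its counts are uncertain if counting ignored strand. The share is of bases and does not give the share of reads affected.

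F2RL1 (chr5:76819008-76835315, plus strand) counted 527, 429.7 and 448 after control siRNA, 144, 147 and 111 after PKR siRNA 1 and 259.6, 281 and 297 after PKR siRNA 2. The order of the siRNAs was thus the reverse of that in PLAU, after PKR siRNA 2 higher by 1.06 on the log2 scale (SE 0.09, limma adjusted p = 5.57e-18). For C16, F2RL1 counted 81.6, 76.2 and 80.7 with DMSO, 198, 223 and 216 at 400 nM and 254, 273 and 258 at 800 nM, groups that did not overlap. It rose at 400 nM by 1.40 on the log2 scale (SE 0.10, limma adjusted p = 6.37e-18). PRSS22 had group means of 89.7, 22.4 and 21.4 in the siRNA table and 4.42, 17.7 and 17.7 in the C16 table, and rose at 400 nM by 1.81 (limma adjusted p = 2.39e-05). For ADAM19 the 400 nM difference was 1.07 (limma adjusted p = 0.00623), from 8.17 to 17.4. CAPN2 rose by 0.74 (limma adjusted p = 8.94e-12) and PCSK6 by 0.95 (limma adjusted p = 0.00968). SPINT1 had the lowest log2 ratio of all 75 genes after PKR siRNA 1, at -3.12, on counts of 2.22, 0.907 and 6.75 against 37.0, 33.3 and 38.9 in the control.

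The second class held 11 genes of the matrix, of adhesion and of signalling at the cell surface, and 9 of them rose at 400 nM, with a class median of 0.82. COL12A1 is a collagen that binds collagen fibrils, and LTBP1 binds latent TGF-beta in the matrix. SDC1 is a heparan sulfate proteoglycan, ICAM1 the ligand of leukocyte integrins, EPCAM an epithelial adhesion molecule and SEMA7A a membrane-anchored semaphorin that binds integrin. GDF15 is a secreted stress-induced cytokine, MERTK a receptor tyrosine kinase for apoptotic cell clearance, PMEPA1 a membrane protein that dampens TGF-beta signalling, and DCBLD1 a transmembrane protein. EPCAM and PMEPA1 were the 2 not called, at 0.48 (limma adjusted p = 0.128) and 0.51 (limma adjusted p = 0.000449).

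ICAM1 (chr19:10270841-10286615, plus strand) counted 331, 307 and 342 after control siRNA, 129, 119.7 and 125 after PKR siRNA 1 and 159, 167 and 159.9 after PKR siRNA 2. With DMSO it counted 151, 137 and 155, at 400 nM 305, 314 and 305 and at 800 nM 270.3, 301 and 296. Both PKR siRNA groups lay below the control, and both doses of C16 lay above DMSO, without overlap. The lower dose gave the higher counts, also without overlap, by a small difference (-0.09 from 400 to 800 nM, limma adjusted p = 0.531). The 400 nM difference was 1.06 on the log2 scale (SE 0.09, limma adjusted p = 4.88e-15). LTBP1 (chr2:32947302-33399508, plus strand) counted 200.2, 228 and 188 after control siRNA, 108, 117 and 108 after PKR siRNA 1 and 84.5, 80.4 and 79.9 after PKR siRNA 2. It counted 41.8, 31.4 and 30.5 with DMSO, 106, 78.4 and 78.7 at 400 nM and 94.8, 84.1 and 105 at 800 nM, with both doses above DMSO and overlapping each other. LTBP1 rose at 400 nM by 1.32 on the log2 scale (SE 0.15, limma adjusted p = 3.88e-10). 

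GDF15 (chr19:18386158-18389176, plus strand) counted 479.5, 509 and 508 after control siRNA, 151, 183 and 154 after PKR siRNA 1 and 294, 281 and 292 after PKR siRNA 2. The C16 series was 80.6, 99.996 and 80.7 with DMSO, 374, 321 and 392 at 400 nM and 248, 306 and 225 at 800 nM, so the lower dose gave the higher counts without overlap. GDF15 rose at 400 nM by 2.04 on the log2 scale (SE 0.10, limma adjusted p = 1.85e-24), and from 400 to 800 nM its difference was -0.48 on the log2 scale (SE 0.10, limma adjusted p = 0.000618). That second value was under the fold threshold, and passed it at -0.61 without the second 800 nM library. Between the siRNAs GDF15 was higher after PKR siRNA 2 by 0.83 on the log2 scale (SE 0.08, limma adjusted p = 3.76e-15). EPCAM, which is also an epithelial marker, counted 83.2, 120.3 and 104 after control siRNA, 14.4, 11.8 and 10.6 after PKR siRNA 1 and 11.9, 10.7 and 9.40 after PKR siRNA 2, and 17.5, 16.2 and 19.8 with DMSO, 24.5, 32.3 and 20.2 at 400 nM and 29.3, 29.2 and 32.4 at 800 nM. Its siRNA groups stood far below the control, and its C16 groups lay above DMSO with small gaps. SEMA7A rose at 400 nM by 1.54 (limma adjusted p = 2.15e-07), SDC1 by 0.81 (limma adjusted p = 3.66e-11) and MERTK by 0.82 (limma adjusted p = 0.000197).

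**Figure D4:**
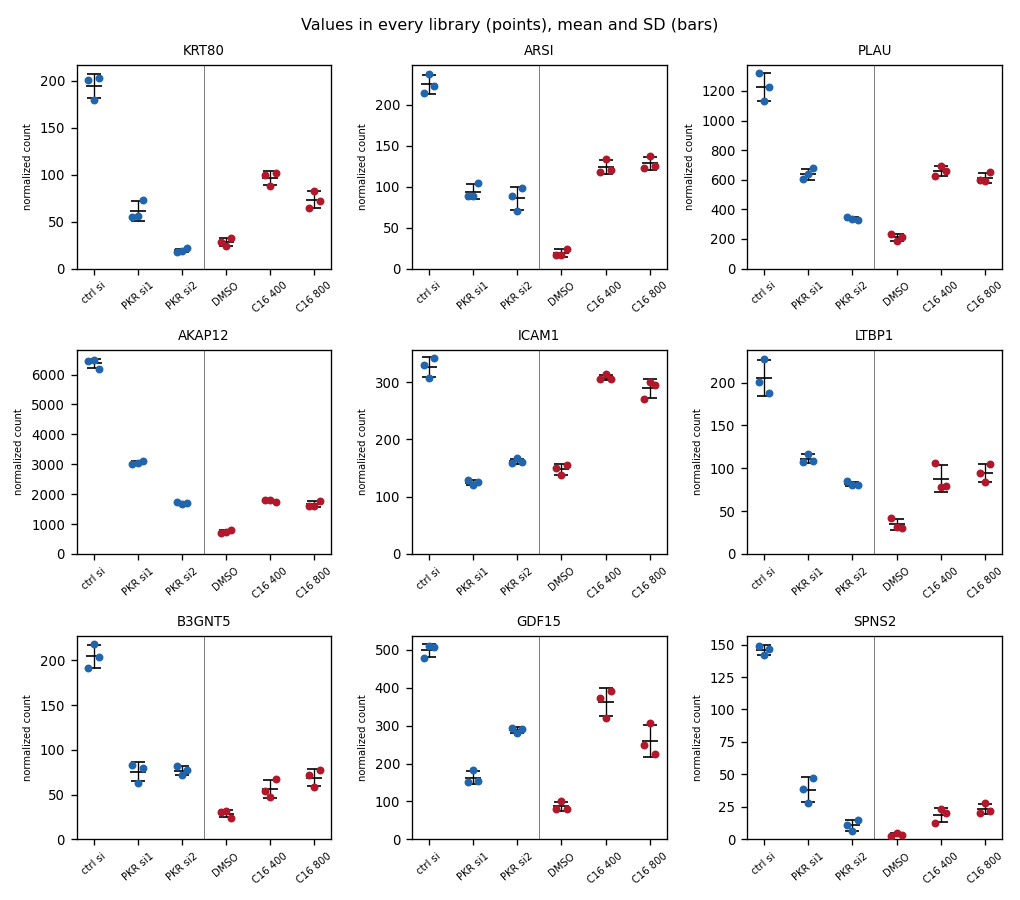
Normalized counts of 9 of the 75 genes in every library (points, blue for the siRNA table and red for the C16 table), with the group mean and SD as bars and a vertical line between the separately normalized tables. In each gene both PKR siRNA groups lie below control siRNA and both C16 groups above DMSO. In GDF15, KRT80 and ICAM1 every library at 400 nM lies above every library at 800 nM.

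The third class held 11 genes of the cytoskeleton and of the control of small GTPases, of which 9 rose at 400 nM, with a class median of 0.85. KRT80 is an epithelial keratin, ZYX the focal adhesion protein zyxin, COTL1 binds filamentous actin, FMNL3 is a formin that assembles actin, MAP7 binds microtubules and MYH15 is a myosin heavy chain. AKAP12 is a scaffold for protein kinases A and C, DOCK4 an exchange factor for Rac, NGEF a guanine nucleotide exchange factor, ARAP2 a GTPase-activating protein for Arf, and LZTS3 a leucine zipper protein. MAP7 and ARAP2 were not called at 400 nM, at 0.75 (limma adjusted p = 0.122) and 0.46 (limma adjusted p = 0.29). This class held 5 of the 18 genes lower after PKR siRNA 2 than after PKR siRNA 1, namely KRT80, MYH15, ZYX, AKAP12 and MAP7.

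KRT80 (chr12:52168996-52192000, minus strand) counted 201, 179 and 203 after control siRNA, 54.4, 56.2 and 73.3 after PKR siRNA 1 and 17.9, 18.2 and 21.6 after PKR siRNA 2. It counted 28.2, 23.8 and 32.7 with DMSO, 99.97, 87.6 and 102 at 400 nM and 64.6, 82.9 and 72.5 at 800 nM. In both tables the 3 groups did not overlap, and the lower dose of C16 gave the higher counts. KRT80 rose at 400 nM by 1.75 on the log2 scale (SE 0.16, limma adjusted p = 7.81e-14). From 400 to 800 nM its difference was -0.40 (limma adjusted p = 0.0785), and between the siRNAs -1.61 on the log2 scale (SE 0.15, limma adjusted p = 2.01e-15). KRT8, another keratin, counted 2504 to 2571 after control siRNA, 1246 to 1347 after PKR siRNA 1 and 4730 to 5105 after PKR siRNA 2, so it lay below the control with the first siRNA and above it with the second. AKAP12 (chr6:151239999-151358561, plus strand) was the most abundant of the 75 genes by count, at 6435, 6476 and 6193 after control siRNA, 3011, 3037 and 3114 after PKR siRNA 1 and 1729, 1659.8 and 1714 after PKR siRNA 2. Its counts were 696, 734 and 815 with DMSO, 1809, 1793 and 1723 at 400 nM and 1614, 1602 and 1774 at 800 nM. The siRNA groups stood far apart relative to their spread, and the doses of C16 overlapped. AKAP12 rose at 400 nM by 1.25 on the log2 scale (SE 0.06, limma adjusted p = 2.38e-25).

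MYH15 (chr3:108380369-108529322, minus strand) had the largest ratio at either dose but few reads. It counted 1.94, 2.86 and 2.28 with DMSO, 20.2, 23.1 and 25.5 at 400 nM and 29.3, 25.6 and 43.9 at 800 nM, and 34.9, 31.2 and 29.4 after control siRNA, 12.2, 14.5 and 24.1 after PKR siRNA 1 and 3.98, 6.43 and 8.46 after PKR siRNA 2. No library of a treated group reached its control range. MYH15 rose at 400 nM by 2.83 on the log2 scale (SE 0.31, limma adjusted p = 8.39e-11), and its log2 ratio at 800 nM was 3.33 with a pseudocount of 1 and 2.34 with a pseudocount of 5. ZYX rose by 0.85 (limma adjusted p = 1.16e-09), COTL1 by 1.02 (limma adjusted p = 1.28e-16), and FMNL3, DOCK4, NGEF and LZTS3 by 0.63, 0.89, 0.65 and 0.90. FMNL3 shares 12.4% of its exonic bases with PRPF40B on the other strand.

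Vesicle traffic and the endolysosome formed a class of 9, of which 6 rose at 400 nM (median 0.71). RAB9A and RAB29 are small GTPases of endosomal and lysosomal traffic, CHMP4C an ESCRT-III subunit, SORL1 a sorting receptor, MREG melanoregulin, MCFD2 the partner of the cargo receptor LMAN1 at the exit from the endoplasmic reticulum, MCTP1 a membrane protein with C2 domains, CCDC64 (BICDL1 in current nomenclature) a dynein adaptor and MCOLN3 an endolysosomal cation channel. RAB9A, MCFD2 and MCOLN3 were not called. MCFD2 (chr2:46901870-46941855, minus strand) counted 278, 293 and 279.7 after control siRNA, 122, 83.4 and 110.0 after PKR siRNA 1 and 151, 167 and 149 after PKR siRNA 2. Its C16 series was 173, 168 and 161 with DMSO, 221, 211 and 219 at 400 nM and 332, 295 and 325 at 800 nM. Each step of the dose was free of overlap, but neither step passed the fold threshold. The first was 0.37 on the log2 scale (SE 0.09, limma adjusted p = 0.00093) and the second 0.54 on the log2 scale (SE 0.09, limma adjusted p = 8.35e-06). The second passed at 0.60 without the second 800 nM library. Between the siRNAs it was 0.58 (limma adjusted p = 1.21e-06), and passed the fold threshold at 0.60 to 0.69 without the first or the third PKR siRNA 1 library or the first or the third PKR siRNA 2 library. SORL1 (chr11:121452203-121633762, plus strand), whose seed matches are printed above, had group means of 561 after control siRNA, 78.6 after PKR siRNA 1 and 114 after PKR siRNA 2. It rose at 400 nM by 0.89 on the log2 scale (SE 0.10, limma adjusted p = 1.2e-10), from 127 to 237. MCTP1 rose by 1.05, CHMP4C by 1.09, RAB29 by 0.73, MREG by 0.66 and CCDC64 by 0.65.

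Enzymes and transporters of glycans and lipids formed another class of 9, of which 6 rose at 400 nM (median 0.98). In all 9 the 400 nM libraries lay above all DMSO libraries. That was also so in all 11 genes of the matrix and adhesion class, so it did not set this class apart. It held for 63 of the chosen genes in total and for 20.4% of the background. GALNT6 starts mucin-type O-glycans, C1GALT1 extends them to the core 1 structure, B3GNT5 starts the lacto-series of glycolipids, and ARSI belongs to the arylsulfatase family. LIPG is endothelial lipase, LYPLA1 removes palmitate from proteins, EPT1 (SELENOI in current nomenclature) makes phosphatidylethanolamine, SERINC2 is a serine incorporator family protein and SPNS2 exports sphingosine-1-phosphate. ARSI (chr5:150296346-150302962, minus strand) counted 214, 237 and 223 after control siRNA, 88.9, 88.9 and 104 after PKR siRNA 1 and 88.5, 70.8 and 97.8 after PKR siRNA 2. It counted 16.5, 16.2 and 24.4 with DMSO, 118, 134 and 120.2 at 400 nM and 123, 138 and 125 at 800 nM. Both siRNAs and both doses gave overlapping values. The 400 nM difference was 2.66 on the log2 scale (SE 0.15, limma adjusted p = 2.8e-22) and that between the doses 0.05 (95% interval -0.24 to 0.35).

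B3GNT5 (chr3:183253244-183273391, plus strand) counted 192, 218 and 204 after control siRNA, 83.3, 63.5 and 80.1 after PKR siRNA 1 and 81.6, 71.8 and 77.1 after PKR siRNA 2. With DMSO it counted 30.1, 31.4 and 24.4, at 400 nM 54.2, 47.3 and 67.0 and at 800 nM 71.6, 58.5 and 77.3. The siRNA groups overlapped each other, as did the doses. B3GNT5 rose at 400 nM by 0.94 on the log2 scale (SE 0.17, limma adjusted p = 2.38e-05). SPNS2 (chr17:4498834-4539933, plus strand) counted 149, 142 and 147 after control siRNA, 38.9, 28.1 and 47.3 after PKR siRNA 1 and 10.9, 6.43 and 15.0 after PKR siRNA 2. Its counts in the C16 table were low, at 2.91, 4.76 and 3.05 with DMSO, 12.8, 23.1 and 20.2 at 400 nM and 20.2, 28.0 and 21.9 at 800 nM. The 400 nM difference was 2.09 on the log2 scale (SE 0.33, limma adjusted p = 1.06e-06) and that between the siRNAs -1.77 on the log2 scale (SE 0.20, limma adjusted p = 6.09e-12). SPNS2 shares 23.9% of its exonic bases with MYBBP1A on the other strand.

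EPT1 (chr2:26346086-26395891, plus strand) and C1GALT1 (chr7:7182615-7248649, plus strand) had smaller steps between the groups of the C16 table. EPT1 counted 58.3, 65.7 and 42.6 with DMSO, 76.6, 84.2 and 83.0 at 400 nM and 109.9, 113 and 129.8 at 800 nM, without overlap. With siRNA EPT1 counted 158, 141 and 139 in the control, 70.0, 43.5 and 44.4 after PKR siRNA 1 and 44.8, 53.6 and 63.0 after PKR siRNA 2. Its 400 nM difference, 0.56 on the log2 scale (SE 0.14, limma adjusted p = 0.00156), was just under the fold threshold, and passed it at 0.61 without the first DMSO library, at 0.69 without the second and at 0.60 without the first 400 nM library. C1GALT1 counted 64.1, 59.0 and 51.0 with DMSO, 72.3, 96.9 and 66.0 at 400 nM and 106, 111 and 111 at 800 nM. Its siRNA values were 124, 132 and 114 in the control, 70.0, 56.2 and 70.4 after PKR siRNA 1 and 44.8, 62.2 and 37.6 after PKR siRNA 2. The C1GALT1 groups of the C16 table did not overlap, and the step from DMSO was 0.41 on the log2 scale (SE 0.14, limma adjusted p = 0.0219). The step between its doses was 0.49 and became 0.65, past the fold threshold, without the second 400 nM library. Its difference between the siRNAs, -0.46, became -0.66 without the second PKR siRNA 2 library. SERINC2 rose by 1.41, GALNT6 by 1.40 and LIPG by 1.00 at 400 nM, and LYPLA1 had 0.27 (limma adjusted p = 0.0348).

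Metabolism, metal handling and nutrient sensing gave 8 genes, of which 6 rose at 400 nM (median 0.80). IDH3A is a subunit of the mitochondrial isocitrate dehydrogenase of the citric acid cycle, PFKFB2 sets the level of fructose 2,6-bisphosphate, PGM2L1 makes glucose 1,6-bisphosphate, GATM starts creatine synthesis and CYP26B1 breaks down retinoic acid. MT1A is a metallothionein, STEAP1 a membrane protein of the metalloreductase family, and GATSL3 (CASTOR1 in current nomenclature) the arginine sensor upstream of mTORC1. IDH3A (chr15:78149377-78170542, plus strand) counted 192, 188 and 164 after control siRNA, 92.2, 92.5 and 98.4 after PKR siRNA 1 and 103, 83.6 and 61.1 after PKR siRNA 2. The values were 96.2, 73.3 and 76.1 with DMSO, 108, 131 and 117 at 400 nM and 160.4, 204 and 173 at 800 nM, an order without overlap. The steps were of like size, 0.54 on the log2 scale (SE 0.12, limma adjusted p = 0.000354) to 400 nM and 0.58 on the log2 scale (SE 0.12, limma adjusted p = 0.000375) from there to 800 nM, both just under the fold threshold. The first passed it at 0.66 without the first DMSO library and 0.60 without the first 400 nM library. The second passed it at 0.60 to 0.66 without the second 400 nM library or the first or the third 800 nM library.

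PGM2L1 (chr11:74330312-74398465, minus strand) counted 148, 138 and 120.4 after control siRNA, 23.3, 26.3 and 26.1 after PKR siRNA 1 and 39.8, 48.3 and 42.3 after PKR siRNA 2. It was higher after PKR siRNA 2 than after PKR siRNA 1 by 0.76 on the log2 scale (SE 0.16, limma adjusted p = 3.79e-05), and its 3′ UTR held 1 match to the first seed and 2 to the second. With DMSO PGM2L1 counted 39.8, 43.8 and 42.6, at 400 nM 71.3, 69.2 and 70.2 and at 800 nM 101, 74.3 and 62.0. All C16 libraries exceeded DMSO, and the 400 nM rise was 0.73 on the log2 scale (SE 0.16, limma adjusted p = 0.000257). STEAP1, MT1A, PFKFB2, GATSL3 and CYP26B1 rose at 400 nM by 1.70, 1.23, 0.95, 0.87 and 0.73. GATM had 0.50 (limma adjusted p = 0.248). MT1A has close relatives in the metallothionein family, and reads that fit several copies make its counts uncertain.

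Cytosolic signalling and immunity gave 4 genes, and 2 rose at 400 nM (median 0.61). ITPKB phosphorylates inositol trisphosphate, MALT1 is the protease and scaffold of NF-kB signalling in lymphocytes, OAS3 is an interferon-induced sensor of double-stranded RNA, as PKR is, and RNF182 is a ubiquitin ligase. ITPKB (chr1:226631690-226739175, minus strand) counted 69.8, 87.0 and 93.9 after control siRNA, 33.3, 28.1 and 27.0 after PKR siRNA 1 and 13.9, 10.7 and 17.9 after PKR siRNA 2. Its values were 10.7, 3.81 and 7.61 with DMSO, 31.9, 38.1 and 45.7 at 400 nM and 65.6, 51.2 and 64.9 at 800 nM. None of these groups overlapped within its table. ITPKB rose at 400 nM by 2.32 on the log2 scale (SE 0.25, limma adjusted p = 2.8e-11) and its value after PKR siRNA 2 minus that after PKR siRNA 1 was -1.03 on the log2 scale (SE 0.21, limma adjusted p = 1.7e-05). The step between its doses was 0.64 on the log2 scale (SE 0.25, limma adjusted p = 0.0693), which passed the test when the first or the second DMSO library was left out of the fit (0.64 each, adjusted p of 0.0459 and 0.0323). OAS3 had group means of 126 after control siRNA, 82.5 after PKR siRNA 1 and 66.8 after PKR siRNA 2, and rose at 400 nM by 0.61 (limma adjusted p = 0.000766). MALT1 had 0.58 (limma adjusted p = 0.00222) and RNF182 0.32 (limma adjusted p = 0.234).

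Nuclear and RNA-binding proteins gave 9 genes, of which 5 rose at 400 nM (median 0.81). ETV4 is an ETS-family factor downstream of ERK, NPAS2 a circadian transcription factor related to CLOCK, KAT2B the histone acetyltransferase PCAF, SCML2 a Polycomb-group protein, TOP1 DNA topoisomerase I, CENPH a kinetochore protein, ZNF486 a zinc finger protein, SAMD4A a repressor of mRNA translation and RBPMS2 an RNA-binding protein. The 5 were SAMD4A at 1.501, KAT2B at 1.14, ZNF486 at 0.90, NPAS2 at 0.82 and TOP1 at 0.62. ETV4 missed the p threshold at 0.81 on the log2 scale (SE 0.32, limma adjusted p = 0.0507), on counts of 10.7, 7.62 and 6.09 with DMSO and 10.6, 17.3 and 17.0 at 400 nM that overlapped by less than 1 count. SCML2 (chrX:18239313-18354724, minus strand) counted 49.3, 45.1 and 52.1 after control siRNA, 11.1, 9.07 and 15.4 after PKR siRNA 1 and 31.8, 30.02 and 32.9 after PKR siRNA 2. It was higher after PKR siRNA 2 than after PKR siRNA 1 by 1.37 on the log2 scale (SE 0.23, limma adjusted p = 2.76e-07). In the C16 table it counted 17.5, 7.62 and 20.6 with DMSO, 28.7, 19.6 and 16.0 at 400 nM and 26.2, 26.8 and 31.5 at 800 nM, with the 400 nM group overlapping DMSO. CENPH had 0.33 (limma adjusted p = 0.108) and RBPMS2 0.32 (limma adjusted p = 0.259). ZNF486 belongs to a family of zinc finger genes with close copies, so its counts are uncertain.

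Of the 7 unclassed genes, N4BP3 and GLIPR1 rose at 400 nM by 1.22 and 1.49, C1orf52 had 0.51 (limma adjusted p = 0.0134) and LOC100506548 0.36 (limma adjusted p = 0.412). The other 3, OSGIN2, LRRC58 and SMCO4, are described above. GLIPR1 had a mean of 10.9 over the C16 table and reached the minimum of 10 only through its 400 nM libraries, at 10.6, 12.7 and 19.1. Its rise at that dose is thus not independent of the choice. It shares 32.3% of its exonic bases with KRR1 on the other strand.

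The control arms of the runs differed in these genes. In RPM, the reads of a gene as a share of its library's reads on all genes, 72 of the 75 genes (96%) were higher after control siRNA than with DMSO, against 47.8% of the 9821 genes, and the median log2 ratio was 1.19 against -0.02. Among the other 255 genes that both siRNAs lowered the median was 0.41, and among the other 1046 that 800 nM C16 raised it was 0.31. The choice itself favours a high control siRNA value and a low DMSO value, and run and kind of control cannot be told apart, so no test was made. The median level of the 75 genes was 71.3 RPM after control siRNA, 26.6 after PKR siRNA 1, 23.3 after PKR siRNA 2, 23.6 with DMSO, 40.2 at 400 nM and 49.9 at 800 nM. The PKR siRNA medians were thus close to that of DMSO. In 22 genes control siRNA was the highest and DMSO the lowest of the 6 group means (background 2.43%).

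**Figure D5:**
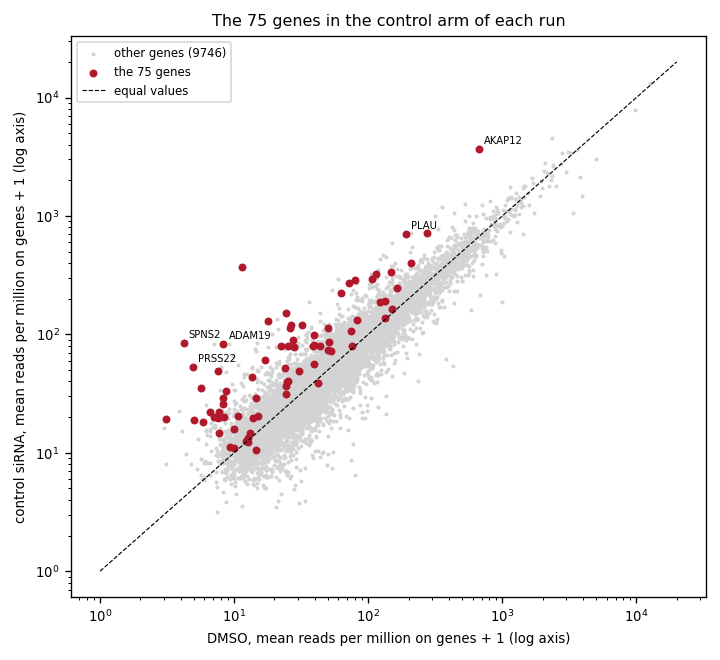
Each point is a gene, placed by its mean RPM plus 1 with DMSO (horizontal, log axis) and after control siRNA (vertical, log axis). Red points are the 75 genes and grey points the 9746 others of the background. Of the red points 72 lie above the dashed line of equal values, with SPNS2 among those far from it.

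Among 13 gene lists of pathways, 6 held at least 1 of the 75 genes and 8 of the genes stood on a list. Over all genes tested, limma called 7.08% higher and 5.45% lower at 400 nM C16, and 16.4% higher and 15.3% lower after PKR siRNA 2 than after PKR siRNA 1. ETV4 was the 1 gene from a list of 20 ERK feedback and output genes. At 400 nM C16 5 of the 17 tested genes of that list rose and 1 fell, and 13 of 18 were lower after PKR siRNA 2 than after PKR siRNA 1. COL12A1 was on a list of 35 matrix proteins and integrins, of which 8 of 27 tested rose at 400 nM. EPCAM and KRT80 were on a list of 25 epithelial junction genes and keratins, of which 4 of 20 rose and 3 fell at 400 nM, and of which 11 of 22 were higher and 4 lower after PKR siRNA 2 than after PKR siRNA 1. ZYX was on a list of 33 actin and focal adhesion genes (5 of 28 rose and 1 fell at 400 nM), SEMA7A on a list of 42 surface receptors and guidance molecules (6 of 37 rose and 3 fell) and LTBP1 on a list of 27 TGF-beta signalling genes (3 of 22 rose and 3 fell). Between the siRNAs, 7 of 28 genes of the matrix list were higher after PKR siRNA 2 and 5 lower, 4 of 29 and 10 of the actin list, 15 of 35 and 6 of the receptor list, and 9 of 24 and 3 of the TGF-beta list. Lists of YAP and TEAD targets, secretory pathway, lysosome, G2 and M phase, DNA replication and ATF4 target genes held none of the 75. At 400 nM C16, 4 of 15, 3 of 36, 6 of 32, 1 of 27, 6 of 31 and 17 of 25 tested genes of these lists rose, in that order. A list of lipid synthesis genes also held none, and 4 of its 27 tested genes fell.

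By position the 75 genes lay on 20 chromosomes, with 10 on chromosome 2. Only 3 pairs of neighbours were within 1 Mb of each other, MCOLN3 with C1orf52, GALNT6 with KRT80 and MCFD2 with EPCAM. In the RefSeq promoter table (GRCh38.p14, 250 bases before to 50 after the start), 58 of the genes had an entry. The AP-1 letters TGAGTCA, with the complement TGACTCA, occurred in 3 of the 58 promoters (5.17%), those of CAPN2, N4BP3 and SPINT1, against 2.57% of 8182 promoters of the background and 4.92% of all 27305 promoters in the table. The CRE and E-box motifs were searched too. They occurred in 1 (1.72%) and 4 (6.9%) of the 58 promoters, against 3.53% and 11% of the background. The motifs were picked after the genes were known, and nothing is read from so few matches. Depth limits the weaker members of the group, since 44 of the 75 genes had a mean under 50 normalized counts in at least 1 table and 19 had a DMSO mean under 10.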

How the data were processed

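PANC-1 RNA was sequenced in 18 libraries. The authors mapped reads to hg38 with TopHat, per the labels and the methods, assigned them to genes by featureCounts and scaled the counts by TMM in TCC, separately for the siRNA and the C16 run. The deposited values are therefore a normalized signal per gene (reads divided by a library factor), and every value (100.0%) was a whole number of reads, within 0.01, once divided by what 1 read is worth in its library. The kit keeps strand, but the annotation, the strand setting and tool versions are not given in the sources used here. All columns matched a sample (0 left over).

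The log2 of each value plus 1 was fitted in limma 3.58.1 (R 4.3.3, eBayes trend, two-sided) over the 9 libraries of a table, keeping genes whose mean reached 10, with Benjamini-Hochberg adjustment. A call needed an adjusted p under 0.05 and a fold change over 1.5. Alternatives were pseudocounts of 0.5 and 5, a minimum mean of 30, no filter, median-of-ratios rescaling, a replicate block, a fit of the 2 groups compared, edgeR 4.0.16 and DESeq2 1.42.0 on recovered reads, and each library left out. Genes named with full values were EIF2AK2, the 12 of the 75 with a mean of at least 50 in both tables and the largest smallest ratio of the rule, the 5 largest and 3 smallest at 400 nM, and the 3 largest called differences between the siRNAs in each direction. EPCAM, a marker that is also among the 75, was given in every library although it did not meet these criteria. The values of 1 of the 75 genes are not reported here by name, and it remains in all counts. The members, lists and tests were chosen with earlier results of these data known. Same-numbered libraries did not deviate together (r from -0.049 to 0.032), and replicates differed by more than sampling noise in all pairs (chi-square per degree of freedom from 1.03 to 1.63), so none were merged. Seed letters came from the siRNA sequences that the study gives.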

Additional observations from a re-analysis of the deposited data

How the results depend on the processing

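The rule gave 75 genes, 45 at a minimum mean of 30, 59 with a pseudocount of 5, 95 with no filter on low values, and 74 to 83 when 1 library was left out. Leaving out a library also loosens the demand for no overlap, so that last range does not measure how stable the set is. Calls at 400 nM C16 went from 51 to 33 at a minimum mean of 30, where 46 of the genes were tested, and ranged from 42 to 53 with 1 library left out, with 0 lower in each. Between the doses, 2 genes were called higher, against 1 at a minimum mean of 30, 1 with no filter, 4 with median-of-ratios rescaling and 4 by edgeR. With 1 library left out the count ran from 1 to 4 (1 without the first 400 nM or the first 800 nM library, 4 without the second 400 nM library). The 0 called lower became 1 in a fit of the 2 doses alone, 1 by edgeR and 1 without the second 800 nM library, a range of 0 to 1. Between the siRNAs, 18 genes were called lower, against 11 at a minimum mean of 30, where 53 were tested, and 18 to 20 with 1 library left out. The 4 called higher became 7 without the third PKR siRNA 1 library, a range of 4 to 7. Apart from the stricter minimum, which tests fewer genes, the cause of these shifts was not tested. With the replicate block the counts were 51 higher at 400 nM C16, and 4 higher and 18 lower between the siRNAs, and the block changed no other call. The block is a check only, since the replicate numbers are not known to mark shared cultures. Of the values of single named genes under the alternatives, 1676 kept their side of the threshold or, where untested, stayed within 1 SD, 23 newly passed it, 7 fell short of it, 10 moved by more than 1 SD and 0 of those called changed sign. Counting error limits genes of few reads, most of all in the C16 table.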
